A study of Homo sapiens with 16 samples.

Results

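The circadian clock repressors examined here are BHLHE40, BHLHE41, PER1, PER2, PER3, CRY1, CRY2, NR1D1 and NR1D2, together with the clock output factor DBP. For each of these 10 genes the probe sets that carried no other gene symbol were taken, and where a gene had several the brightest was used. That left 9 genes with a probe set of their own, of 22395 genes so measured, and all 9 were among the 15676 genes tested. NR1D1 was measured only on probe sets that it shares with THRA, and it is described apart from the other 9.

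In the mammalian clock, the proteins CLOCK and BMAL1 bind E-box sequences and switch on their own repressors. PER and CRY proteins return to the nucleus as a complex and block CLOCK and BMAL1. BHLHE40 and BHLHE41, also called DEC1 and DEC2, occupy E-boxes themselves and repress from there. NR1D1 and NR1D2, also called REV-ERB alpha and beta, are nuclear receptors that repress the BMAL1 gene, while DBP is an activator that binds D-boxes and is itself driven through E-boxes. Several of these genes, PER1 and the BHLHE pair among them, are also induced by signals from outside the clock, such as glucocorticoids, cyclic AMP and hypoxia.

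The RNA came from DLD1 and HCT116, both established human colorectal carcinoma lines. For each there are matched Mut and WT derivatives, named for PIK3CA, the gene of a catalytic subunit of phosphoinositide 3-kinase. Mut cells keep a mutant PIK3CA allele and have lost the wild-type one by knockout, whereas WT cells have lost the mutant allele. Every culture was in DMEM with 10% dialyzed fetal bovine serum for 24 h. The 8 groups were DLD1 Mut without glutamine, DLD1 Mut with glutamine, DLD1 WT without glutamine, DLD1 WT with glutamine, HCT116 Mut without glutamine, HCT116 Mut with glutamine, HCT116 WT without glutamine and HCT116 WT with glutamine, each with 2 biological replicates on whole-transcript Affymetrix arrays. Each genotype of a line is 1 derivative, so a difference between genotypes and a difference between derivatives cannot be told apart. All cells were collected at a single time, and the labels name no synchronisation of the clock, so the values are levels in a culture and not rhythms.

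Levels are given as the log2 of the deposited intensity, and changes as differences of log2 levels with limma's standard error (SE) from 1 fit over the 16 arrays. A change was called where limma's p, adjusted by Benjamini-Hochberg over all tested genes, was under 0.05. Array medians lay between 3.57 and 3.70 in intensity, and replicates of a group correlated at 0.989 to 0.992 across genes. All 8 epithelial markers were among the tested genes, with EPCAM at log2 levels of 10.44 to 11.22. All 5 intestinal markers were tested too, although CDH17, an intestinal cadherin, ran from 1.73 to 9.52. None of 4 leukocyte and 3 endothelial markers and 1 of 5 fibroblast markers was bright enough to be tested. PTPRC, the pan-leukocyte antigen, lay at 0.74 to 1.25. The leukocyte marker CD14 peaked above the highest levels of CDX1 (3.15), VIL1 (3.22) and LGALS4 (3.62), but below those of CDX2 (8.14) and CDH17. That CD14 peak also lay above the lowest level of KRT8, an epithelial marker at 3.62 to 5.39. The lowest mean log2 level among tested genes was 1.65, so being tested does not by itself show expression.

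Promoter sequences were available for all 10 genes from RefSeq on build GRCh38.p14, as 13 windows that run from 250 bases before a transcription start to 50 bases after it. The E-box was searched as CACGTG, a common variant of it as CACGTT, the D-box as TTATGTAA, the element bound by NR1D and ROR receptors as AGGTCA, and the core of the amino acid response element as TGATGCAA, each on both strands. CACGTG reads the same on both strands, and no match of a motif overlapped a match of another. The sequences below show where the E-boxes lie, because the loop described above runs through them. In each, the capitals mark the motif named, and the bases shown all lie before the transcription start.

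BHLHE41 and PER1 each held a canonical E-box. These genes had the largest average changes on glutamine withdrawal among the 9 genes, and a link between motif and change was not tested. The BHLHE41 stretch is chr12:26125038-26125287 on the minus strand, with its E-box beginning 48 bases before the start. The PER1 stretch is chr17:8152405-8152654 on the minus strand, with the E-box in capitals first and then an AGGTCA element that lies on the reverse strand.
BHLHE41: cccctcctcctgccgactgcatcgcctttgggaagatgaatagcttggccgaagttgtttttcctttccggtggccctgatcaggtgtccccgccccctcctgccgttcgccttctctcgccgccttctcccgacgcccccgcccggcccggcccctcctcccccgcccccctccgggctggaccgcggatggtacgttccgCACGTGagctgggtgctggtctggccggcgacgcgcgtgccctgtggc
PER1: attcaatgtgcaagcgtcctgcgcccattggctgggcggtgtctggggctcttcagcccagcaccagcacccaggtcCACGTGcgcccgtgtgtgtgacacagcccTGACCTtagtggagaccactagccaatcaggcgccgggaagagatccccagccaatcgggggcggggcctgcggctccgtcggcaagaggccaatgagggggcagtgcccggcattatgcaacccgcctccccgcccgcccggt

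BHLHE40 and NR1D2 held E-boxes as well, and NR1D2 held a pair of them before the downstream of its 2 starts. The BHLHE40 stretch is chr3:4979187-4979224 on the plus strand, and the NR1D2 stretches are chr3:23945954-23945983 and chr3:23946004-23946033 on the plus strand.
BHLHE40: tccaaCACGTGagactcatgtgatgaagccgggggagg
NR1D2, upstream E-box: ggcgggcggggaCACGTGaggccgctcggc
NR1D2, downstream E-box: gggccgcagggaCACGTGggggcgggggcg

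PER2 and CRY1 held the CACGTT variant instead, on the reverse strand in CRY1, and PER3 held a D-box. The stretches are chr2:238288790-238288819 on the minus strand for PER2, chr12:107093606-107093665 on the minus strand for CRY1 and chr1:7784087-7784148 on the plus strand for PER3.
PER2: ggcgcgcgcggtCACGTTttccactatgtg
CRY1: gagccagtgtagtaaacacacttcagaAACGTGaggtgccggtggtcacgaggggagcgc
PER3: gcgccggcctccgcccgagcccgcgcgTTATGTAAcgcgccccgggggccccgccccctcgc

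The canonical E-box was in 4 of the 13 windows, one each of 4 genes, and in 7.26% of all 35116 promoter windows. The CACGTT variant was in 4 of 13 windows and 5.34% of all, and AGGTCA was in 3 of 13 windows and 13.8% of all. A D-box was found for PER3 and NR1D2, in 2 of 13 windows and 0.886% of all, and no window held TGATGCAA, which was in 0.866% of all. The DBP window held none of these motifs. A match describes the letters in a window and not a bound site.

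**Figure D1:**
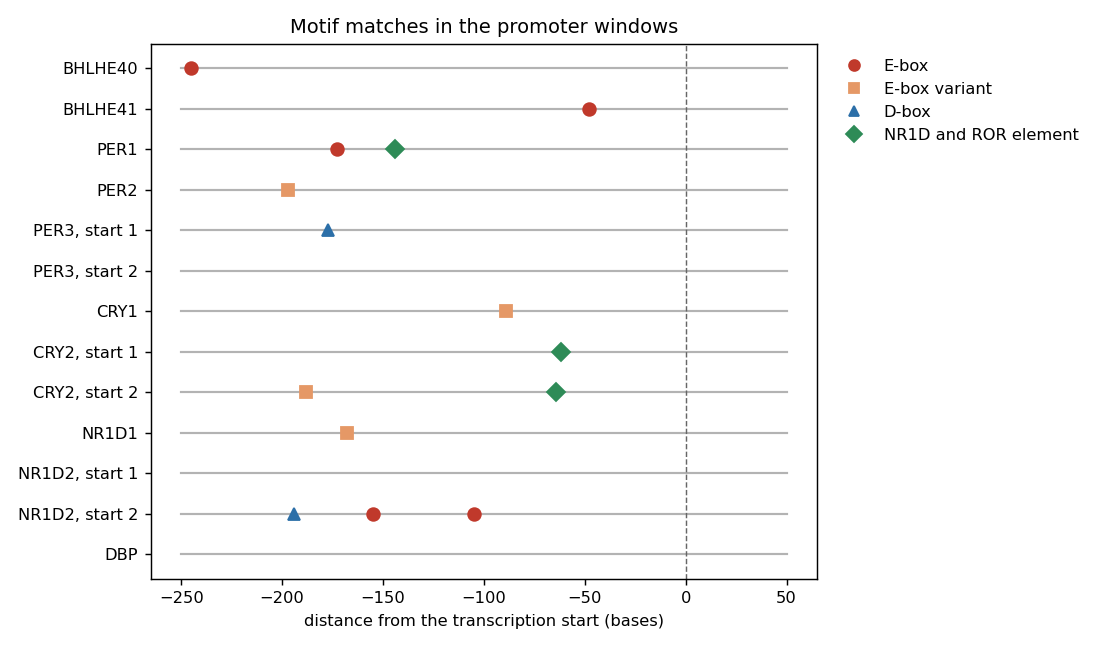
Positions of exact motif matches in the 13 promoter windows of the 10 genes, one line for each start, with the distance from the transcription start in bases on the x axis and the start as a dashed line. Circles are E-boxes, squares the CACGTT variant, triangles D-boxes and diamonds AGGTCA elements; all matches lie before the start.

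On glutamine withdrawal most of the measured clock genes rose in each derivative, while CRY1 fell in HCT116 WT cells and DBP fell in DLD1 Mut cells. Averaged over the 4 derivatives, 9 of 9 genes rose, where 24.3% of all tested genes rose and 23.5% fell. Their median change on the log2 scale was 0.79, beside -0.00 for all tested genes. By derivative, 7 of 9 rose and 1 fell in DLD1 Mut cells, where 16.8% of all tested genes rose and 16.8% fell. In DLD1 WT cells 6 rose and none fell, against 14.0% and 13.0% of all tested genes. In HCT116 Mut cells 8 rose and none fell, against 16.4% and 16.5%. In HCT116 WT cells 5 rose and 1 fell, against 10.3% and 10.1%. BHLHE41, PER1 and NR1D2 were called higher in every one of the 4 derivatives, as were 555 of all tested genes (3.54%). In total RNA of a culture, more RNA per cell and more cells that express a gene cannot be told apart.

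**Figure D2:**
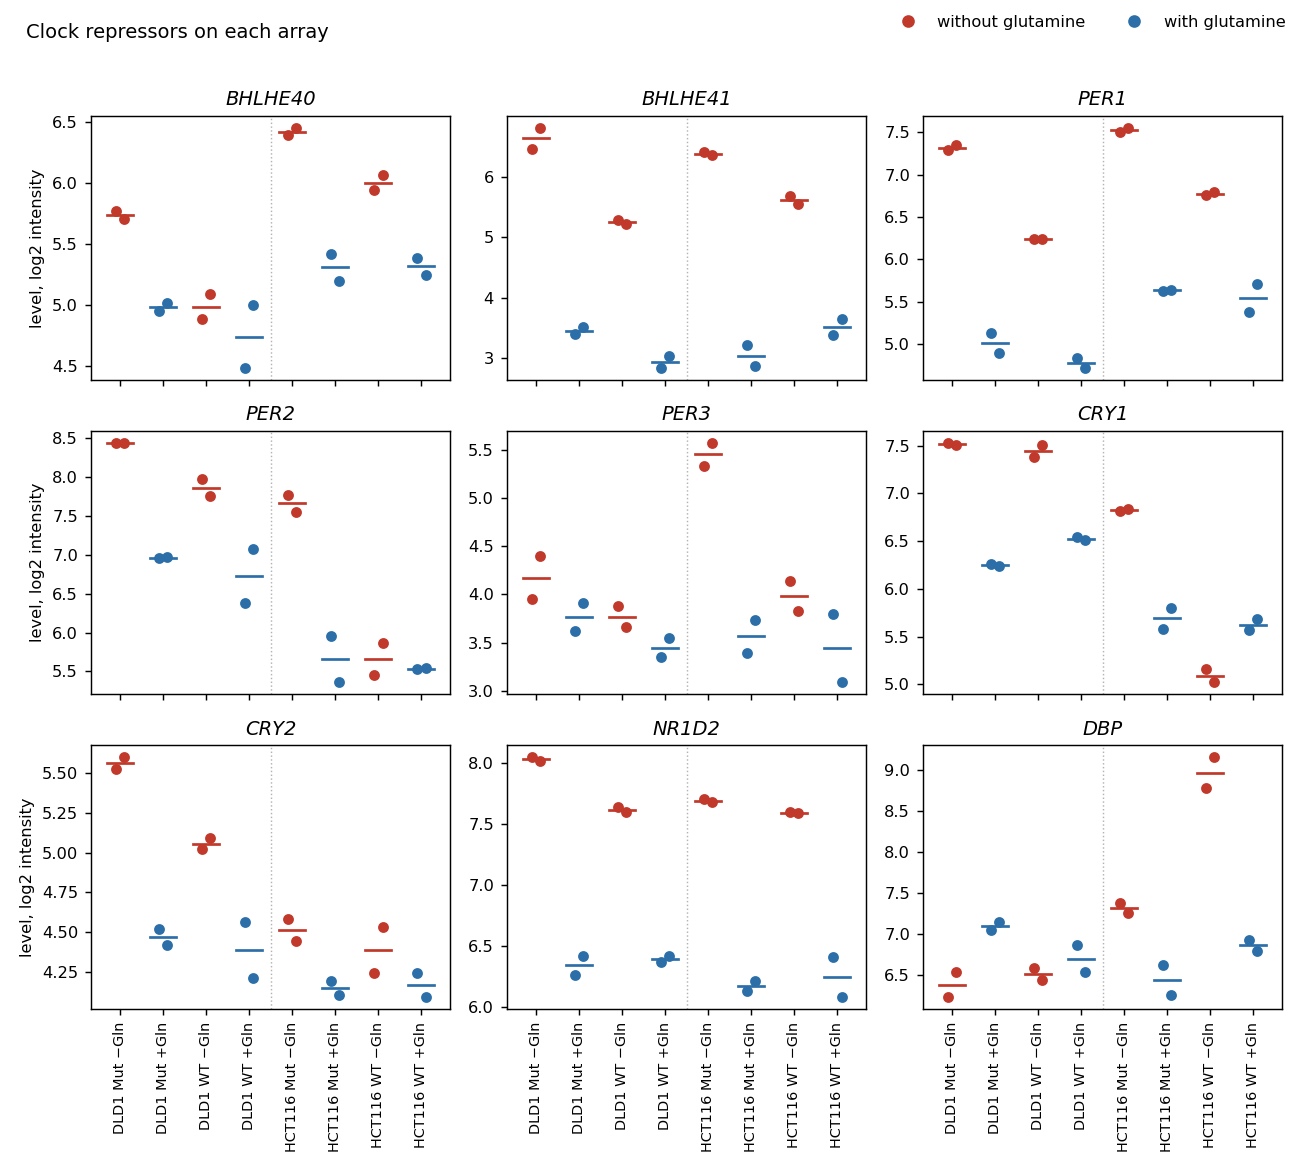
Log2 level of each of the 9 genes on each of the 16 arrays, by derivative, with cultures without glutamine left of those with it points for single replicates and bars for group means. BHLHE41, PER1 and NR1D2 lie higher without glutamine in all 4 derivatives, while DBP lies lower without glutamine in DLD1 Mut cells and highest in HCT116 WT cells without it.

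BHLHE41, the E-box repressor at chr12:26120030-26125037 whose E-box is printed above, had the largest average change of the 9 genes. In DLD1 Mut cells its log2 levels were 6.46 and 6.80 without glutamine, against 3.39 and 3.52 with it. DLD1 WT cells had 5.28 and 5.21 without glutamine and 2.84 and 3.04 with it. The lowest array without glutamine therefore stood well above the highest with it in both DLD1 derivatives. HCT116 Mut cells had 6.41 and 6.35 without glutamine, against 3.21 and 2.87 with it. HCT116 WT cells had 5.67 and 5.54 without glutamine, against 3.38 and 3.64 with it. Across all 16 arrays the levels without and with glutamine did not overlap. The order of group means put both Mut groups without glutamine on top, then both WT groups without glutamine, and all groups with glutamine below. SSPN, which overlaps BHLHE41 in RefSeq, was too dim to be tested, as was BHLHE40-AS1, which overlaps BHLHE40.

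The fitted change of BHLHE41 was 3.18 ± 0.15 in DLD1 Mut cells (9.03-fold; limma adjusted p = 9.16e-07) and 2.31 ± 0.15 in DLD1 WT cells (4.95-fold; limma adjusted p = 5.18e-06). In HCT116 Mut cells it was 3.34 ± 0.15 (10.2-fold; limma adjusted p = 6.62e-07), and in HCT116 WT cells 2.09 ± 0.15 (4.27-fold; limma adjusted p = 1.17e-05). Counted from the largest rise among the 15676 tested genes, BHLHE41 stood at rank 5 in DLD1 Mut, 18 in DLD1 WT, 7 in HCT116 Mut and 19 in HCT116 WT cells. On average over the derivatives it stood at rank 4, with 2.73 ± 0.08. With glutamine its intensities were 7.17 to 12.4, beside array medians of 3.57 to 3.70, and adding 4 to every intensity before taking the log gave an average of 2.31, still called.

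BHLHE40, the close relative of BHLHE41 at chr3:4979437-4985323, had smaller changes, called in 3 of the 4 derivatives. Its log2 levels in DLD1 Mut cells were 5.77 and 5.71 without glutamine, against 4.95 and 5.02 with it. In HCT116 Mut cells they were 6.39 and 6.45 without glutamine, against 5.42 and 5.20 with it. These arrays did not overlap, and BHLHE40 rose by 0.76 ± 0.16 in DLD1 Mut cells (limma adjusted p = 0.00337) and by 1.11 ± 0.16 in HCT116 Mut cells (limma adjusted p = 0.000341). HCT116 WT cells had 5.94 and 6.07 without glutamine and 5.39 and 5.25 with it, a rise of 0.69 (limma adjusted p = 0.0105). In DLD1 WT cells the levels were 4.89 and 5.09 without glutamine and 4.49 and 5.0 with it. The groups overlapped there, and the difference of 0.24 was not called (limma adjusted p = 0.296). Without DLD1 WT with-glutamine replicate 2 it was 0.50 (limma adjusted p = 0.0312). Without HCT116 WT with-glutamine replicate 2 or without-glutamine replicate 2, the call in HCT116 WT cells was lost (limma adjusted p = 0.0711 and 0.0678).

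PER1, a period gene that feeds back on CLOCK and BMAL1, lies at chr17:8140472-8152404 and rose in every derivative. In DLD1 Mut cells its log2 levels were 7.29 and 7.35 without glutamine, against 5.13 and 4.89 with it. The DLD1 WT levels were 6.24 and 6.24 without glutamine and 4.83 and 4.72 with it. In HCT116 Mut cells the levels were 7.50 and 7.55 without glutamine, against 5.63 and 5.64 with it. In HCT116 WT cells PER1 lay at 6.76 and 6.79 without glutamine, against 5.38 and 5.71 with it. As for BHLHE41, every array without glutamine lay above every array with it, and the Mut groups without glutamine were the highest. The changes were 2.31 ± 0.12 (4.95-fold) in DLD1 Mut, 1.46 ± 0.12 (2.75-fold) in DLD1 WT, 1.89 ± 0.12 (3.7-fold) in HCT116 Mut and 1.23 ± 0.12 (2.34-fold) in HCT116 WT cells. Their limma adjusted p-values ran from 1.07e-06 to 5.78e-05.

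PER2, a core period protein that works with CRY1 and CRY2, rose in 3 derivatives. It lies at chr2:238244044-238300065. Its log2 levels were 8.44 and 8.44 in DLD1 Mut cells without glutamine, against 6.96 and 6.97 with it, and the change was 1.47 ± 0.24 (limma adjusted p = 0.000849). DLD1 WT cells had 7.97 and 7.75 without glutamine, against 6.38 and 7.08 with it, a change of 1.13 (limma adjusted p = 0.00559). The HCT116 Mut levels were 7.77 and 7.55 without glutamine, against 5.96 and 5.36 with it, a change of 2.00 (limma adjusted p = 0.000134). HCT116 WT cells stood apart, with 5.46 and 5.87 without glutamine and 5.53 and 5.54 with it. Those arrays overlapped, and the difference of 0.13 was not called (limma adjusted p = 0.78).

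PER3, a period protein that is dispensable for the core loop in mice, lies at chr1:7784291-7845177. When its 8 groups were put in order of level, 1 of 7 neighbouring pairs was free of overlap, the fewest of the 9 genes. Only HCT116 Mut cells had a called change, with log2 levels of 5.33 and 5.57 without glutamine, against 3.39 and 3.74 with it. That was a rise of 1.88 ± 0.24 (limma adjusted p = 0.000202). All other PER3 groups lay between 3.09 and 4.40, and the uncalled differences were 0.42 in DLD1 Mut cells, 0.54 in HCT116 WT cells and 0.32 in DLD1 WT cells. Within each derivative the PER3 arrays without glutamine still lay above those with it. Separation of 2 against 2 arrays thus also occurred for uncalled changes. HCT116 WT cells had 4.14 and 3.83 without glutamine and 3.80 and 3.09 with it, and leaving out with-glutamine replicate 1, at 3.80, gave a called 0.89 (limma adjusted p = 0.0396).

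CRY1, the cryptochrome that completes the PER complex and lies at chr12:106991364-107093549, moved in opposite directions. In DLD1 Mut cells its log2 levels were 7.53 and 7.51 without glutamine, against 6.26 and 6.24 with it. In DLD1 WT cells the levels were 7.38 and 7.51 without glutamine and 6.54 and 6.51 with it. HCT116 Mut cells had 6.82 and 6.84 without glutamine, against 5.58 and 5.80 with it. Those 3 derivatives showed rises of 1.27 ± 0.10, 0.91 ± 0.10 and 1.14 ± 0.10, with limma adjusted p-values of 7.45e-06, 8.59e-05 and 1.65e-05. In HCT116 WT cells CRY1 had 5.16 and 5.02 without glutamine, against 5.57 and 5.68 with it. The arrays again did not overlap, and CRY1 fell by 0.53 there (SE 0.10; limma adjusted p = 0.00355). HCT116 WT cells without glutamine thus had the lowest CRY1 level of the 8 groups.

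CRY2, the other cryptochrome, at chr11:45847118-45883244, rose in both DLD1 derivatives, while its call in HCT116 Mut cells depended on the setting. Its log2 levels were 5.53 and 5.60 in DLD1 Mut cells without glutamine, against 4.52 and 4.42 with it, a change of 1.09 ± 0.13 (limma adjusted p = 0.000124). The DLD1 WT levels were 5.02 and 5.09 without glutamine, against 4.56 and 4.21 with it, a change of 0.68 (limma adjusted p = 0.00365). HCT116 Mut cells had 4.58 and 4.44 without glutamine and 4.19 and 4.10 with it, and HCT116 WT cells had 4.24 and 4.53 without glutamine and 4.24 and 4.09 with it. The HCT116 differences of 0.36 and 0.22 were not called (limma adjusted p = 0.0618 and 0.288). CRY2 had another, dimmer probe set of its own at log2 levels of 0.84 to 1.71, whose average difference was -0.06 ± 0.09 (limma adjusted p = 0.625). By derivative that probe set had -0.49 in DLD1 Mut, 0.03 in DLD1 WT, 0.31 in HCT116 Mut and -0.10 in HCT116 WT cells. None of these was called, and the DLD1 Mut value went against that of the brighter probe set. With the mean of both probe sets the DLD1 Mut change was 0.30 and no longer called (limma adjusted p = 0.0592), while the HCT116 Mut change was 0.33 and called (limma adjusted p = 0.0402). In all, the HCT116 Mut difference gained a call under 7 alternative settings.

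NR1D2, or REV-ERB beta, at chr3:23945286-23980617, had the narrowest range of changes across the 4 derivatives among the 9 genes. Its log2 levels were 8.05 and 8.02 in DLD1 Mut cells without glutamine, against 6.26 and 6.42 with it, and 7.64 and 7.60 in DLD1 WT cells without glutamine, against 6.37 and 6.42 with it. The HCT116 Mut levels were 7.71 and 7.68 without glutamine and 6.13 and 6.21 with it, and the HCT116 WT levels were 7.60 and 7.59 without glutamine and 6.41 and 6.08 with it. All 8 arrays without glutamine lay between 7.59 and 8.05, and all 8 with it between 6.08 and 6.42. The changes were 1.69 ± 0.11 (3.23-fold) in DLD1 Mut, 1.22 ± 0.11 (2.34-fold) in DLD1 WT, 1.52 ± 0.11 (2.87-fold) in HCT116 Mut and 1.35 ± 0.11 (2.55-fold) in HCT116 WT cells, with limma adjusted p-values from 2.86e-06 to 2.96e-05. NR1D2 overlaps NKIRAS1 in RefSeq, and NKIRAS1 was not called in any comparison made here, with an average withdrawal difference of 0.08 ± 0.09 (limma adjusted p = 0.511).

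NR1D1, or REV-ERB alpha, overlaps THRA, the thyroid hormone receptor alpha gene, and could not be read on a probe set of its own. The shared probe set for which NR1D1 is listed ahead of THRA had log2 levels of 9.04 and 9.01 in DLD1 Mut cells without glutamine, against 6.35 and 6.32 with it. DLD1 WT cells had 8.01 and 7.98 without glutamine and 6.46 and 6.57 with it. HCT116 Mut cells had 9.43 and 9.65 without glutamine and 6.62 and 6.63 with it, and HCT116 WT cells 9.31 and 9.32 without glutamine and 7.44 and 7.41 with it. The levels without glutamine lay above those with it in every derivative. Changes were 2.69, 1.48, 2.92 and 1.89 in DLD1 Mut, DLD1 WT, HCT116 Mut and HCT116 WT cells, all called by limma, with an average of 2.25 ± 0.04 (limma adjusted p = 4.74e-10). The other shared probe set, for which THRA is listed ahead, had an average difference of -0.14 ± 0.08 (limma adjusted p = 0.207). These values belong to NR1D1 and THRA jointly.

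DBP, the D-box activator at chr19:48630030-48637379, rose in both HCT116 derivatives and in neither DLD1 derivative. In HCT116 WT cells its log2 levels were 8.78 and 9.16 without glutamine, against 6.93 and 6.79 with it, a rise of 2.11 ± 0.18 (4.33-fold; limma adjusted p = 2.6e-05). In HCT116 Mut cells the levels were 7.38 and 7.26 without glutamine, against 6.62 and 6.25 with it, a rise of 0.88 ± 0.18 (limma adjusted p = 0.00293). DLD1 Mut cells went the other way, with 6.23 and 6.53 without glutamine, against 7.05 and 7.15 with it. DBP fell by 0.73 there (SE 0.18; limma adjusted p = 0.00881). In DLD1 WT cells the levels were 6.59 and 6.44 without glutamine and 6.86 and 6.53 with it, and this difference of -0.18 was not called (limma adjusted p = 0.516). The fall in DLD1 Mut cells was lost without with-glutamine replicate 2 (-0.67; limma adjusted p = 0.0553) or without-glutamine replicate 1 (-0.58; limma adjusted p = 0.0768). DBP overlaps SPHK2 in RefSeq, which had no probe set of its own here, and the strand that the probes read is not stated in the labels.

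**Figure D3:**
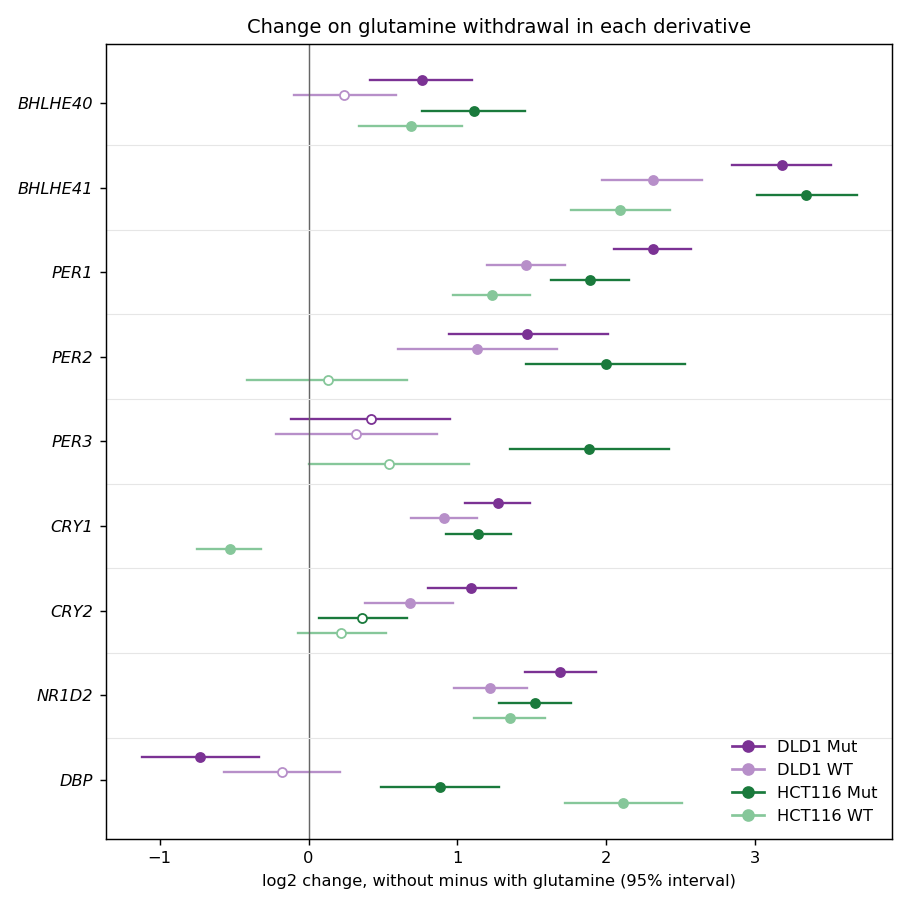
Log2 change on glutamine withdrawal, without minus with glutamine, of the 9 genes in each derivative, with 95% intervals from the limma fit; filled points were called at a limma adjusted p under 0.05 and open points were not. BHLHE41 runs from 2.09 to 3.34 and has the largest change in every derivative but HCT116 WT, where DBP is at 2.11; CRY1 lies below 0 in HCT116 WT cells.

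The response differed between the lines for some of these genes. The withdrawal change in DLD1 minus that in HCT116, each averaged over both genotypes, was called for 4 of 9 genes, 2 higher and 2 lower in DLD1, where 10.0% and 8.93% of all tested genes were. CRY1 and CRY2 responded more in DLD1, by 0.79 ± 0.10 (limma adjusted p = 0.000532) and 0.59 ± 0.13 (limma adjusted p = 0.0118). The CRY1 average joins genotypes that moved apart in HCT116, at 1.14 in Mut and -0.53 in WT cells. In DLD1 the CRY1 change was 1.27 in Mut and 0.91 in WT cells. DBP and PER3 had lower changes in DLD1, with differences of -1.95 ± 0.18 (limma adjusted p = 0.000116) and -0.85 ± 0.24 (limma adjusted p = 0.0346). For DBP the directions differed, with -0.73 in DLD1 Mut and an uncalled -0.18 in DLD1 WT cells. In HCT116 the DBP change was 0.88 in Mut and 2.11 in WT cells. For PER3 the HCT116 average rests mostly on Mut cells at 1.88, beside 0.54 in HCT116 WT, 0.42 in DLD1 Mut and 0.32 in DLD1 WT cells. BHLHE41 and NR1D2 had differences of 0.02 each, with 95% intervals from -0.31 to 0.36 for BHLHE41 and from -0.22 to 0.27 for NR1D2. The difference was 0.33 for PER1 (limma adjusted p = 0.0814), 0.24 for PER2 (limma adjusted p = 0.549) and -0.40 for BHLHE40 (limma adjusted p = 0.105). The CRY2 difference was 0.13 and uncalled with the mean of its probe sets (limma adjusted p = 0.477), and the PER3 difference lost its call under 9 alternative settings.

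With glutamine present, the lines themselves differed in 5 of 9 genes, 3 of them higher and 2 lower in DLD1, where 24.5% of all tested genes were higher and 22.5% lower. PER2, CRY1 and CRY2 were higher in DLD1 than in HCT116 cells, by 1.25 ± 0.17, 0.73 ± 0.07 and 0.27 ± 0.09, and PER1 and BHLHE40 were lower, with -0.70 ± 0.08 and -0.45 ± 0.11. The share called among the 9 genes is near that of all tested genes, and CRY2 lost its call under 9 alternative settings. BHLHE41 differed by -0.07 and was not called (limma adjusted p = 0.614).

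The comparison of Mut with WT cells asked whether the PIK3CA allele goes with the level of these genes. With glutamine, none of the 9 genes was called in DLD1, where 5.81% of all tested genes were called, and none in HCT116, where 3.23% were. Before adjustment, limma's p was under 0.05 for 3 of the 9 genes in DLD1 and for 2 in HCT116, beside 19.9% and 17.0% of all tested genes. BHLHE41 differed by 0.52 in DLD1 (limma adjusted p = 0.0796) and by -0.47 in HCT116 (limma adjusted p = 0.138). Differences of the other genes with glutamine lay between -0.42 and 0.41.

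Without glutamine, Mut cells had higher levels of several repressors in both lines. In DLD1, 5 of 9 genes were higher in Mut than in WT cells and none was lower, where 4.36% of all tested genes were higher and 5.91% lower. In HCT116, 5 were higher and 1 lower, where 12.3% were higher and 12.4% lower. BHLHE41 was higher in Mut cells by 1.39 ± 0.15 in DLD1 (2.61-fold; limma adjusted p = 0.000373) and by 0.78 ± 0.15 in HCT116 (1.72-fold; limma adjusted p = 0.0037). PER1 was higher by 1.08 ± 0.12 in DLD1 (limma adjusted p = 0.000373) and by 0.75 ± 0.12 in HCT116 (limma adjusted p = 0.00114). Both genes thus differed in the same direction in the pairs of derivatives of either line. Their arrays did not overlap, but this also held for uncalled differences, such as CRY1 in DLD1 at 0.08.

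The remaining called differences without glutamine were in 1 line each. In DLD1 they were BHLHE40 at 0.75 ± 0.16 (limma adjusted p = 0.0125), CRY2 at 0.51 ± 0.13 (limma adjusted p = 0.0373) and NR1D2 at 0.41 ± 0.11 (limma adjusted p = 0.0374). In HCT116 they were PER2 at 1.99 ± 0.24 (3.98-fold; limma adjusted p = 0.000236), CRY1 at 1.74 ± 0.10 (3.33-fold; limma adjusted p = 6.34e-06) and PER3 at 1.46 ± 0.24 (limma adjusted p = 0.00156). DBP was lower in HCT116 Mut than in HCT116 WT cells, with -1.65 ± 0.18 (3.15-fold; limma adjusted p = 0.000118). The uncalled values in the other line had the same signs. They were 0.41 for BHLHE40, 0.12 for CRY2 and 0.10 for NR1D2 in HCT116. For DLD1 they were 0.58 for PER2, 0.08 for CRY1, 0.41 for PER3 and -0.14 for DBP. In DLD1 the call was lost under 4 alternative settings for BHLHE40, 11 for CRY2 and 12 for NR1D2. Leaving out any 1 of the 4 DLD1 arrays without glutamine brought the count there to 2 or 3.

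**Figure D4:**
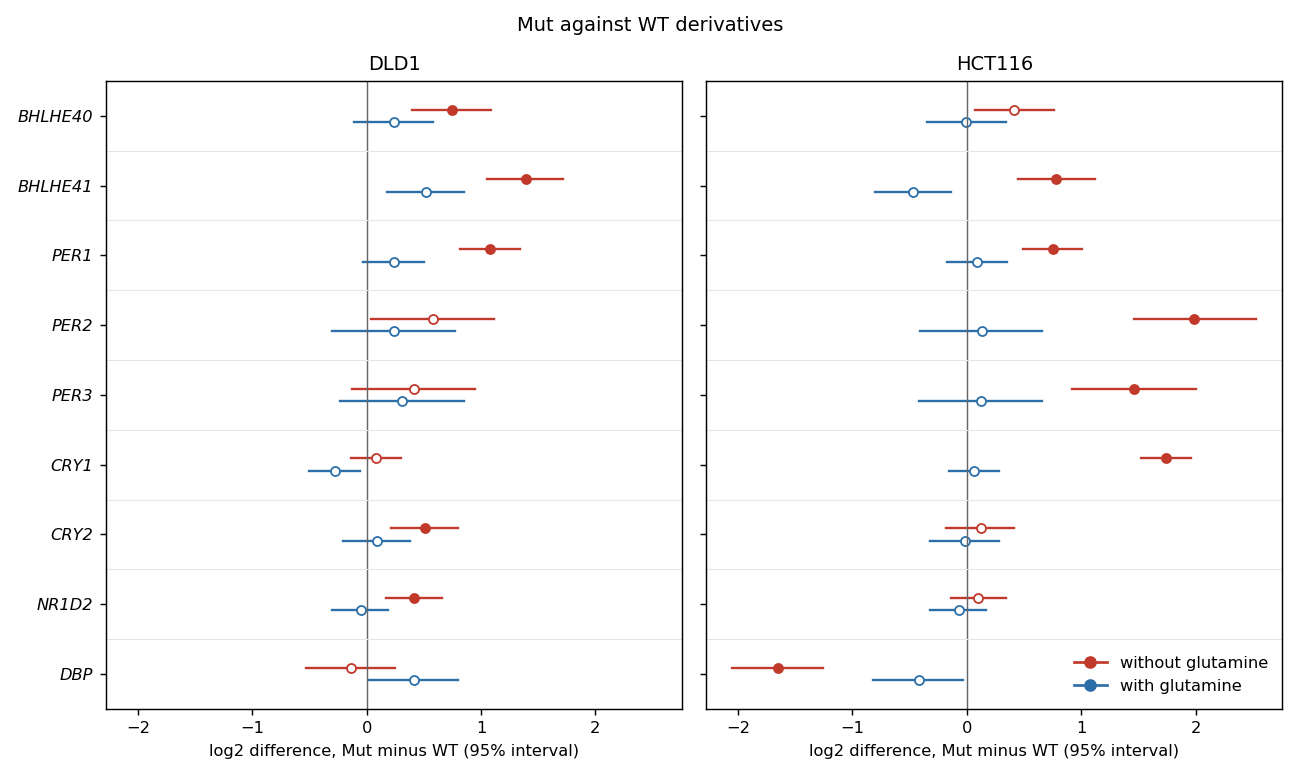
Log2 difference of Mut minus WT cells for the 9 genes in DLD1 and in HCT116, without and with glutamine, with 95% intervals; filled points were called at a limma adjusted p under 0.05 and open points were not. No gene is called with glutamine, while BHLHE41 and PER1 lie above 0 without it in both lines and DBP lies at -1.65 in HCT116.

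Whether the withdrawal change itself differed between genotypes was tested as an interaction, which uses the same arrays as the comparisons above. In HCT116 the interaction was called for 6 of 9 genes, 5 higher and 1 lower in Mut cells, where 4.75% of all tested genes were higher and 4.75% lower. PER2, CRY1 and PER3 responded more in HCT116 Mut than in HCT116 WT cells, by 1.87 ± 0.34 (limma adjusted p = 0.00832), 1.68 ± 0.14 (limma adjusted p = 0.000226) and 1.34 ± 0.34 (limma adjusted p = 0.0357). The corresponding values for BHLHE41 and PER1 were 1.25 ± 0.21 (limma adjusted p = 0.00605) and 0.66 ± 0.17 (limma adjusted p = 0.0342). For BHLHE41 this joins a Mut minus WT difference of 0.78 without glutamine and an uncalled -0.47 with it. The latter rests on low mean intensities, 8.21 in Mut and 11.4 in WT cells. DBP responded less in HCT116 Mut cells, with -1.23 ± 0.25 (limma adjusted p = 0.0134). The call was lost under 11 alternative settings for PER1, 9 for PER3 and 2 for DBP. Without HCT116 Mut without-glutamine replicate 2, and with HCT116 fitted alone, the interaction was called for 3 genes.

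In DLD1 the interaction was called for none of the 9 genes, where 0.823% of all tested genes were called, and limma's unadjusted p was under 0.05 for 5 of them and for 14.9% of all tested genes. BHLHE41 had 0.87 ± 0.21 (limma adjusted p = 0.0889) and PER1 0.85 ± 0.17 (limma adjusted p = 0.0503), with 95% intervals from 0.40 to 1.34 and from 0.48 to 1.22. CRY1 had 0.35, against the 1.68 it had in HCT116, and the difference between those interactions was not tested. In both lines 8 of 9 interactions lay above 0, beside 47.7% of all tested genes in DLD1 and 50.1% in HCT116, and DBP was the exception in each.

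The shared probe set listed for NR1D1 ahead of THRA, which is not among the 9, was called in several of these comparisons. With glutamine it was lower in HCT116 Mut than in HCT116 WT cells, with -0.80 ± 0.09 (limma adjusted p = 0.000931), and in DLD1 the difference was -0.18 (limma adjusted p = 0.293). Without glutamine it was higher in DLD1 Mut than in DLD1 WT cells, by 1.03 ± 0.09 (limma adjusted p = 7.79e-05), and in HCT116 the difference was 0.23 (limma adjusted p = 0.0923). Its interaction was called in both lines, at 1.22 ± 0.13 in DLD1 (limma adjusted p = 0.00413) and 1.03 ± 0.13 in HCT116 (limma adjusted p = 0.00129). Between the lines, its response was smaller in DLD1, with -0.32 ± 0.09 (limma adjusted p = 0.0306). With glutamine its level was also lower in DLD1 than in HCT116 cells, with -0.60 ± 0.06 (limma adjusted p = 1.56e-05).

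The activators and other genes of the clock were divided between rises and falls. Of 42 other clock genes listed, 38 were measured on a probe set that named no other gene, and 34 were tested. On average over the derivatives 11 of them rose and 11 fell, where 24.3% of all tested genes rose and 23.5% fell, with a median change of -0.02. In single derivatives 7 rose and 9 fell in DLD1 Mut, 5 and 7 in DLD1 WT, 9 and 10 in HCT116 Mut and 3 and 4 in HCT116 WT cells. Of all tested genes 16.8% rose and 16.8% fell in DLD1 Mut, 14.0% and 13.0% in DLD1 WT, 16.4% and 16.5% in HCT116 Mut and 10.3% and 10.1% in HCT116 WT cells. NOCT, which encodes the rhythmically expressed enzyme nocturnin, rose most, by 1.44 ± 0.06 (limma adjusted p = 2.21e-08). The D-box activators HLF and TEF, relatives of DBP, rose by 0.95 ± 0.12 (limma adjusted p = 8.19e-05) and 0.62 ± 0.11 (limma adjusted p = 0.000995). SIRT1, a deacetylase that acts on clock proteins, rose by 0.66 ± 0.05 (limma adjusted p = 1.04e-06). Among single derivatives HLF was called in both Mut derivatives, TEF in all but DLD1 WT and SIRT1 in all but HCT116 WT cells.

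TIMELESS and its partner TIPIN, which also serve at DNA replication forks, fell by 1.19 (limma adjusted p = 3.04e-08) and 0.79 (limma adjusted p = 1.43e-06). ID1 and ID3, inhibitors of helix-loop-helix factors, fell on average by 0.69 (limma adjusted p = 4.07e-07) and 0.55 (limma adjusted p = 0.000602). ID1 was nevertheless called higher in HCT116 WT cells, at 0.53 (limma adjusted p = 0.00167), with a DLD1 minus HCT116 difference in response of -1.56 (limma adjusted p = 9.09e-06). For ID3 the call among single derivatives was in DLD1 Mut cells alone, at -1.33 (limma adjusted p = 0.000327), and HCT116 Mut cells had 0.08. CLOCK itself differed by 0.13 ± 0.05 and was not called (limma adjusted p = 0.0573). BMAL1 rose by 0.36 ± 0.07 on average (limma adjusted p = 0.00149), and among single derivatives it was called in HCT116 Mut cells alone, at 1.19 ± 0.14 (limma adjusted p = 0.000111). Its interaction in HCT116 was 1.03 ± 0.20 (limma adjusted p = 0.0105), and with glutamine it was lower in HCT116 Mut than in HCT116 WT cells, with -0.89 (limma adjusted p = 0.00747). BMAL2, the BMAL1 paralogue, fell by 0.21 (limma adjusted p = 0.0122), and NPAS2, the CLOCK paralogue, had -0.16 (limma adjusted p = 0.0731). NFIL3, the D-box repressor, rose by 0.45 ± 0.09 (limma adjusted p = 0.0013), while RORA, an activator that competes with the NR1D receptors, had 0.08 (limma adjusted p = 0.779).

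NOCT, the other clock gene with the largest average rise, was not called higher in HCT116 WT cells. Its changes were 2.33 in DLD1 Mut, 2.07 in DLD1 WT and 1.58 in HCT116 Mut cells, all called, and -0.21 in HCT116 WT cells (limma adjusted p = 0.244). The NOCT interaction in HCT116 was 1.78 ± 0.16 (limma adjusted p = 0.000263). Of the other clock genes, GSK3B, a kinase of clock proteins, was called higher in all 4 derivatives, as were 3.54% of all tested genes. TIMELESS, TIPIN, USP7 and WEE1 were called lower in all 4, as were 3.67% of all tested genes. GSK3B, USP7 and WEE1 were named here for that count.

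**Figure D5:**
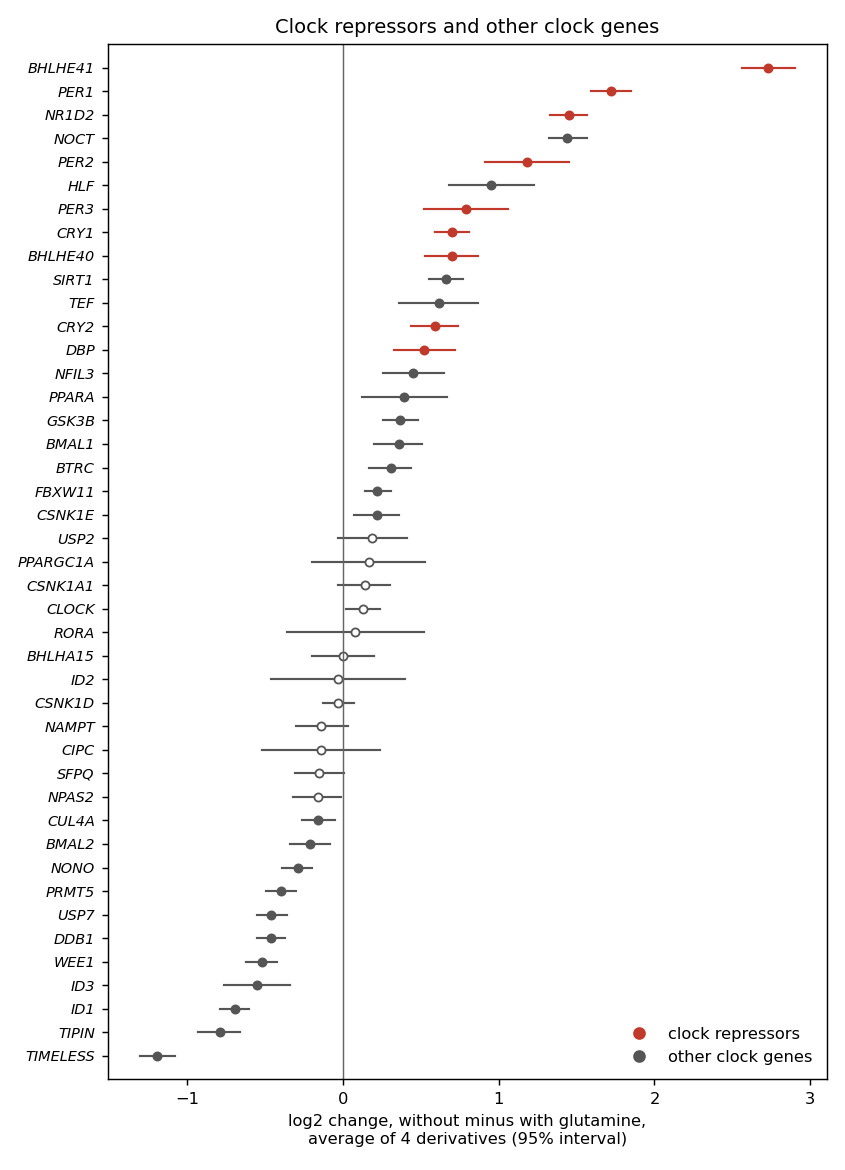
Average log2 change on glutamine withdrawal over the 4 derivatives for the 9 measured clock repressors and output genes and for other genes of the clock, with 95% intervals; filled points were called at a limma adjusted p under 0.05. BHLHE41 stands highest at 2.73, NOCT leads the other clock genes at 1.44, and TIMELESS is the lowest at -1.19.

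Across the 16 arrays the members fell into patterns that can be described by the correlation of log2 levels, bearing in mind that the arrays come in groups of 2 and share the 2 lines and the glutamine contrast. Of the 36 pairs, BHLHE41 and NR1D2 were the most alike (r = 0.96), followed by BHLHE41 and PER1 (r = 0.95) and by PER2 and CRY1 (r = 0.93). BHLHE40 and BHLHE41 had r = 0.74, lower than either had with PER1. DBP ran against CRY1 (r = -0.61) and PER2 (r = -0.38). Over all tested genes, the levels most like those of BHLHE41 were those of ZC3H6 and ZSWIM6 (r = 0.966 each), NDEL1 and NR1D2 (r = 0.963 each) and MCL1 (r = 0.962). MCL1 encodes a survival protein of the BCL2 family. The levels that ran most against BHLHE41 were those of GINS2 (r = -0.971), a subunit of the replicative helicase, and of APEH (-0.966), CDCA7 (-0.965), the chaperone HSP90AA1 (-0.964) and the tubulin TUBB (-0.963).

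For the other genes the closest were ZSWIM6 for PER1 (r = 0.974), PIGA for PER2 (0.976), FGF7P6 for PER3 (0.921), FOSL2 for CRY1 (0.961) and ZFPL1 for CRY2 (0.959). AGO4 was closest to NR1D2 (r = 0.983), ATF6 to BHLHE40 (0.947) and TESK2 to DBP (0.915). AGO4 encodes an Argonaute protein, FOSL2 an AP-1 subunit and ATF6 a sensor of endoplasmic reticulum stress. DBP and PER3 thus had lower highest correlations than the rest of the 9 genes.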

How the data were processed

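The deposited series table held 1 linear intensity per probe set and array, 53617 probe sets on 16 arrays. Per the labels' protocols, total RNA was labelled with the Affymetrix whole-transcript protocol; neither software nor normalization of the intensities is stated there. The log2 of each deposited intensity was taken here, with no pseudocount. Probe sets were named from the platform's gene table (23871 with 1 symbol, 1842 with several), the brightest per gene was kept, and genes in the upper 70% of mean log2 level were tested. The fit was limma 3.58.1 in R 4.3.3 (lmFit, eBayes; 8 group means, 8 residual and 2.49 prior degrees of freedom), tested on simulated data first; calls used a Benjamini-Hochberg adjusted p under 0.05 in each of 13 contrasts.

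The members, the list of other clock genes, the markers and the rule for naming genes (all members; other clock genes with the 4 largest called rises and falls on average; the core activators and D-box factors; the closest genes by r) were chosen with earlier results of these data known. The CACGTT search was added after the data were seen. Alternatives covered the filter, normalization, probe set rule, log offset, variance model, replicate block, single-line fits and leaving out each array. Replicates are biological by their labels, 2 per group, and nothing says whether they came from separate days; their number limits the precision. Promoters are from RefSeq, GRCh38.p14.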

Additional observations from a re-analysis of the deposited data

Results flagged for a closer look

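For 4 genes the change on glutamine withdrawal differed between the lines when the difference itself was tested, as DLD1 minus HCT116 on the log2 scale. It was 0.79 for CRY1, 0.59 for CRY2, -0.85 for PER3 and -1.95 for DBP. Of all tested genes, 10.0% were called higher and 8.93% lower in this comparison. The PER3 difference lost its call under 9 alternative settings, and CRY2 had an uncalled 0.13 with the mean of its probe sets. CRY1 rose in both DLD1 derivatives and also in HCT116 Mut cells, by 1.14, and fell in HCT116 WT cells alone. DBP fell in DLD1 Mut cells and rose in both HCT116 derivatives.

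For 6 genes the change differed between the HCT116 genotypes, as Mut minus WT, in a test of the interaction. It was 1.87 for PER2, 1.68 for CRY1, 1.34 for PER3, 1.25 for BHLHE41, 0.66 for PER1 and -1.23 for DBP. Of all tested genes, 4.75% were called higher and 4.75% lower in this test. PER1 lost its call under 11 alternative settings, PER3 under 9 and DBP under 2.

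A signal appeared outside the probe sets that name a single gene. The probe set shared by NR1D1 and THRA, with NR1D1 listed ahead, had an average change of 2.25 on glutamine withdrawal, with the cultures that kept glutamine as controls.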

How the results depend on the processing

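Of 3015 changes of single genes recomputed under the alternatives, 2921 kept their side of the threshold and, where called, their direction; 73 lost their call, 21 gained one, and no called change turned its direction. Of 335 counts of called genes, 320 stayed within 1.5 times. The count for Mut against WT cells in DLD1 without glutamine, 5 of 9, was 3 with no filter on dim genes, 3 with a replicate block within each line, 2 with DLD1 fitted alone, and 2 to 5 when single arrays were left out; among cultures lacking glutamine it was 2 without DLD1 Mut replicate 1, 2 without DLD1 Mut replicate 2, 2 without DLD1 WT replicate 1 and 3 without DLD1 WT replicate 2. The interaction count in DLD1, 0 of 9, was 1 for genes above the median level, 1 after a median shift, 2 with log2(intensity + 4), 1 with eBayes trend and robust, and 0 to 1 when single arrays were left out. The interaction count in HCT116, 6 of 9, was 3 with HCT116 fitted alone and 3 to 6 when single arrays were left out, the lowest without HCT116 Mut replicate 2 lacking glutamine. The cause of these shifts was not tested. Over the 13 contrasts 63 calls were made; a replicate block over all arrays gave 61 and a replicate block within each line 58. No pairing by replicate number was visible in the values, as deviations of same-numbered samples correlated at -0.04 to 0.03 over 28 pairs of groups. Such correlations cannot show whether same-numbered cultures were set up together. BHLHE41 had average withdrawal changes of 2.31 to 2.77 over all alternatives. Low intensities of BHLHE41 with glutamine limit how exactly its fold is known. The comparison of protein identity within families was not run here.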

Other observations

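The probe set shared by THRA and NR1D1 with THRA listed ahead differed by -0.65 ± 0.17 on glutamine withdrawal in HCT116 Mut cells (limma adjusted p = 0.0115), while the one with NR1D1 listed ahead rose by 2.92 in the same cells. Without glutamine the set with THRA listed ahead was lower in HCT116 Mut than in HCT116 WT cells, with -1.01 ± 0.17 (limma adjusted p = 0.00145). Which transcripts each set reads was not tested.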
